A study of Mus musculus with 6 samples.

Results

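The genes described here lie on mouse chromosome 18 around Spink3, the gene that 2 of the 3 genotypes in the study lack. They were chosen by position alone. Every array probe with a gene name that the array's annotation (mouse build mm9) places within 15 Mb of the Spink3 probe on either side was taken, and Spink3 itself was left out. This gave 393 of the 55681 non-control probes on the array, 257 on the side of lower coordinates and 136 on the side of higher coordinates. Of these, 338 carry a gene symbol and 55 an identifier alone, and together they carry 317 different names. The other named probes of chromosome 18, 552 in number, served for comparison.

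RNA was extracted from whole pancreata of mice on the C57BL/6N background, taken on postnatal day 0.5, and 2 arrays were run for each of 3 genotypes. Spink3+/+ mice were the wild-type controls. Spink3-/- mice lack Spink3, and the series describes death of the acinar cells with autophagy in them. Spink3-/-XKI/+ mice lack Spink3 as well and carry 1 copy of an allele that the labels call XKI without saying what it is; the series describes only part of their acinar cells as dying. The labels do not say how the Spink3 allele was made, from which strain the chromosome around it came, or that the arrays of a genotype hold separate animals, so p-values measure only how far the samples at hand vary, and that variation may be technical. In whole tissue, fewer cells of a type and less RNA per cell cannot be told apart.

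The product of Spink3 is secreted by acinar cells along with their digestive enzymes and inhibits trypsin. A gene targeted on a chromosome is inherited together with its neighbours, so genes near it can differ between knockout and wild-type mice through their own alleles, and a changed locus can also alter the expression of genes beside it. The neighbourhood of Spink3 holds other Spink genes, which encode inhibitors of serine proteases, and the clustered protocadherins, cell adhesion proteins known above all from neurons. It also holds the growth response gene Egr1, the growth factor gene Fgf1, the glucocorticoid receptor gene Nr3c1 and the tumour suppressor gene Apc.

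Levels are given as log2 of the processed signal minus the array's 75th percentile, so that 0 is that percentile and a step of 1 is a doubling. The 75th percentile of the signal ran from 111 to 155, and 42.4% to 50.8% of the spots on an array were well above background. Row 1 of the slide held both Spink3+/+ arrays and Spink3-/- replicate 1, and row 2 held Spink3-/- replicate 2 and both Spink3-/-XKI/+ arrays. No row held both Spink3+/+ and Spink3-/-XKI/+, so a comparison of these genotypes with slide row as a block rests on Spink3-/-, which has 1 array in each row. All 7 acinar markers examined were well above background on all 6 arrays. Their summed level, as log2, was 12.88 and 13.13 in Spink3+/+, 12.77 and 13.13 in Spink3-/-, and 12.98 and 12.90 in Spink3-/-XKI/+. Of the 7, 1 lay higher for both genotypes together against Spink3+/+, with a median difference of -0.14. On the log2 scale, the summed level of 5 liver markers was 4.60 and 4.65 in Spink3+/+, 5.78 and 5.68 in Spink3-/-, and 4.68 and 5.02 in Spink3-/-XKI/+, and that of 5 macrophage markers was 5.21 and 5.38, 5.47 and 5.58, and 5.88 and 5.60. For both genotypes against Spink3+/+, 1 of 4 neutrophil and 1 of 4 erythroid markers lay higher, with median differences of -0.59 and -0.74, while 2 of 3 duct markers lay higher, with a median of 0.49. The part of these other cells in the values below was not tested.

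The Spink3 probe (chr18:43887802-43887858, minus strand) checked the labels. Its level was 9.84 and 10.26 in Spink3+/+, 3.25 and 2.95 in Spink3-/-, and 2.64 and 2.34 in Spink3-/-XKI/+. The genotypes that lack the gene lay far below the wild type with no overlap, and the probe was still well above background on all 6 arrays. Spink3 fell in both, with log2 differences of -6.95 (SE 0.24) in Spink3-/- and -7.56 (SE 0.24) in Spink3-/-XKI/+, which are 123-fold and 189-fold (limma, Benjamini-Hochberg adjusted p = 0.0021 and 0.00125 over 24820 tested probes). Its call, but hardly its size, depended on the fit. With slide row as a block the limma adjusted p was 0.0579 for Spink3-/- and 0.113 for Spink3-/-XKI/+, with no filter on dim probes 0.0793 and 0.0509, and without Spink3-/-XKI/+ replicate 2 0.0669 and 0.0815 with the filter on dim probes applied anew, but 0.0183 and 0.0371 with the tested probes held the same. Without Spink3-/- replicate 2, with the tested probes held the same, it was 0.0579 for Spink3-/-.

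No gene beside Spink3 passed the test in any comparison. Of the 393 flanking probes, 198 were tested, because both arrays of 1 genotype or more had them well above background; 195 were not, and 145 of those were above background on no array. In Spink3-/- against Spink3+/+, 0 of the 198 were called at an adjusted p under 0.05 (limma), where 0.0443% of all tested probes were called. The count was also 0 for Spink3-/-XKI/+ against Spink3+/+ (0.00806% of all), for Spink3-/- against Spink3-/-XKI/+ (0% of all) and for both Spink3-/- genotypes together against Spink3+/+ (0.0282% of all). The lowest limma adjusted p among the flanking probes was 0.883, 0.201, 0.338 and 0.417 in these 4 comparisons. All 4 share arrays and 1 estimate of the spread with each other, so none is independent of the rest.

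At an unadjusted p under 0.05, the same fits gave 8 flanking probes in Spink3-/- against Spink3+/+, or 4.04%, beside 4.92% of all tested probes. They gave 15 (7.58%) in Spink3-/-XKI/+ against Spink3+/+, beside 6.8% of all. They gave 5 (2.53%) in Spink3-/- against Spink3-/-XKI/+, beside 6.5%, and 12 (6.06%) in both genotypes against Spink3+/+, beside 5.91%. The rest of chromosome 18, with 289 tested probes, gave 5.88%, 6.92%, 6.92% and 6.57%. These shares lie near or below the background, and no test of the differences between them was made. Among the 198 are 14 probes that were above background on both arrays of 1 genotype alone, which favours a difference there. In the 167 probes above background on all 6 arrays, the shares were 2.99%, 4.19%, 1.8% and 2.4%, beside 2.91%, 4.79%, 4.89% and 3.63% of the 20739 such probes on the array.

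**Figure D1:**
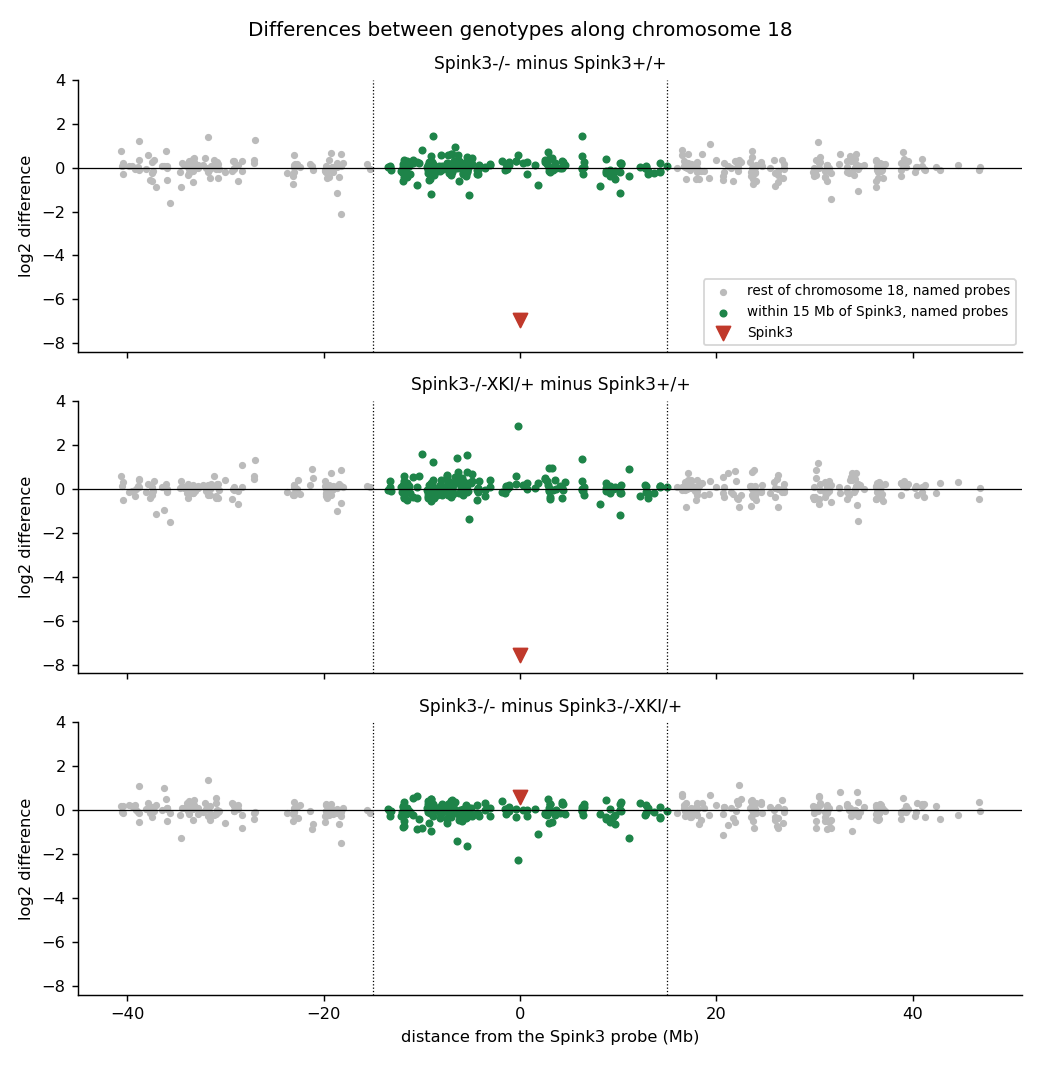
Each point is 1 tested named probe of chromosome 18, placed by its distance from the Spink3 probe (x axis, Mb) and its log2 difference between genotypes (y axis), in 3 panels for the 3 pairs of genotypes; green points lie within 15 Mb, grey points farther away, and the triangle is Spink3. Spink3 stands at -6.95 and -7.56 against Spink3+/+, while the green points scatter around 0 and the highest of them, at 2.85 in the middle panel, is Jakmip2.

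The sizes of the differences were also close to those elsewhere. The median absolute log2 difference of the tested flanking probes was 0.16 in Spink3-/- against Spink3+/+, 0.17 in Spink3-/-XKI/+ against Spink3+/+ and 0.16 in Spink3-/- against Spink3-/-XKI/+. All tested probes gave 0.17, 0.19 and 0.18, and the rest of chromosome 18 gave 0.19, 0.20 and 0.18. The median signed difference was 0.01, 0.04 and -0.03 in the flank and 0.01, 0.05 and -0.04 over all tested probes. A missed threshold does not show that a gene was the same in the genotypes: the 95% interval of a flanking probe's difference reached a median of 0.54 to either side of its estimate for a pair of genotypes, and 0.46 for both genotypes against Spink3+/+.

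The levels of both Spink3-/- genotypes lay wholly above or wholly below those of Spink3+/+ for 39 of the 198 probes, 27 above and 12 below. That is 19.7%, beside 14.6% of all tested probes (8.84% above and 5.74% below) and 17% in the rest of chromosome 18. For Spink3-/- alone against Spink3+/+ the groups did not overlap for 67 probes (33.8%), beside 32.1% of all. For Spink3-/-XKI/+ against Spink3+/+ they did not overlap for 84 (42.4%), beside 41.7%, and for Spink3-/- against Spink3-/-XKI/+ for 63 (31.8%), beside 32.4%.

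The window was divided by distance. Within 1 Mb of Spink3 lie 28 flanking probes, of which 19 were above background on no array and 6 were tested. Between 1 and 5 Mb 39 of 76 were tested, between 5 and 10 Mb 110 of 202, and between 10 and 15 Mb 43 of 87. The median difference of both Spink3-/- genotypes from Spink3+/+ was 0.25 within 1 Mb, 0.08 at 1 to 5 Mb, -0.01 at 5 to 10 Mb and -0.03 at 10 to 15 Mb. The first of these medians rests on only 6 probes, so no trend with distance is read from it. Beyond 15 Mb the median was 0.04 out to 25 Mb (108 probes) and 0.03 farther away (181 probes).

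**Figure D2:**
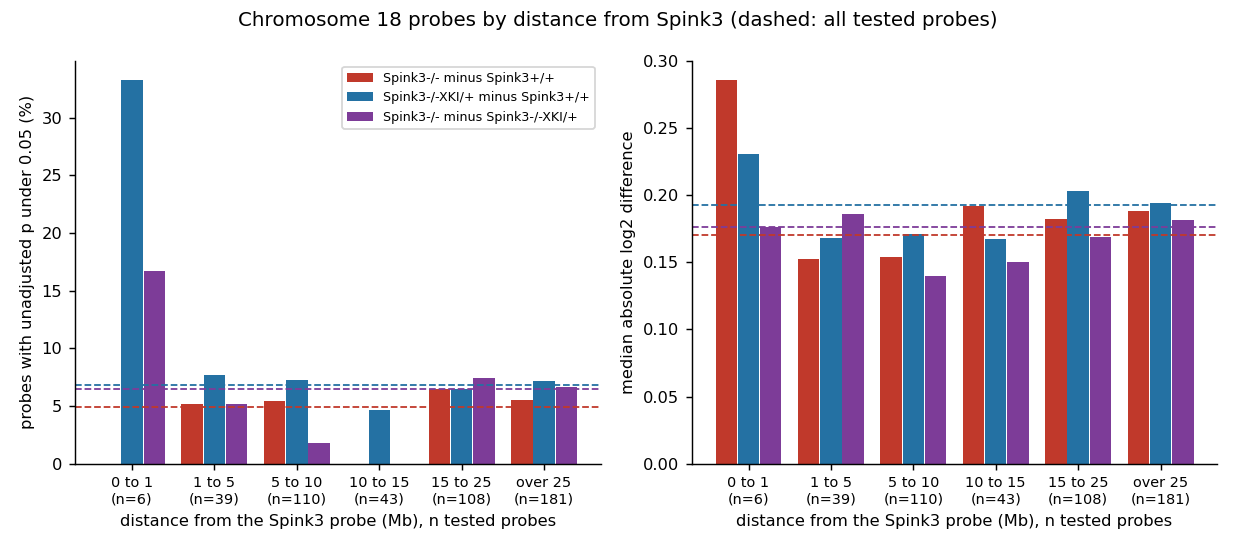
The left panel gives the share of tested named probes with an unadjusted p under 0.05 (%) and the right panel the median absolute log2 difference, for chromosome 18 probes by distance from Spink3 (x axis, Mb, with the number of tested probes) and for 3 pairs of genotypes; dashed lines give the same over all tested probes. Bars from 1 Mb outward lie near or below the dashed lines, and those within 1 Mb rest on 6 probes, of which 0, 2 and 1 had such a p in Spink3-/- against Spink3+/+, Spink3-/-XKI/+ against Spink3+/+ and Spink3-/- against Spink3-/-XKI/+.

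The Spink genes nearest to Spink3 were not well above background in the newborn pancreas. The probes of Spink5, Spink14, Spink6, Spink12 and Spink11 lie 0.29 to 0.46 Mb from Spink3 on the side of higher coordinates, and none was well above background on any of the 6 arrays. Spink5 encodes the inhibitor LEKTI of the skin and hair. Scgb3a2, which encodes a secretoglobin of the airways, lies 0.04 Mb away and has 2 probes. The level of one was -4.12 and -4.56 in Spink3+/+, -4.69 and -4.10 in Spink3-/-, and -4.96 and -0.80 in Spink3-/-XKI/+. Spink3-/-XKI/+ replicate 2 alone was well above background there, while the other Scgb3a2 probe was above it on no array. Neither probe was tested. These 6 genes with their 7 probes make up the list of Spink and neighbouring secreted proteins, none of which could be tested.

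Jakmip2, which encodes a protein that binds Janus kinases and microtubules, was the nearest tested gene with a symbol and had the lowest p of the flank in 3 of the 4 comparisons, all but that of Spink3-/- with Spink3+/+. Its probe (chr18:43706630-43706689, minus strand, 0.18 Mb from Spink3) read -4.48 and -4.34 in Spink3+/+, -3.31 and -4.37 in Spink3-/-, and -1.88 and -1.25 in Spink3-/-XKI/+. Both Spink3-/-XKI/+ arrays lay above the other 4, which were not well above background. The difference of Spink3-/-XKI/+ from Spink3+/+ was 2.85 (SE 0.39) with a limma adjusted p of 0.201, and since the probe was measured in Spink3-/-XKI/+ alone, it is a bound of at least 1.99-fold. This bound is the mean of the bright arrays over, in each dim array, the higher of the probe's own level and the lowest level of any probe well above background.

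For Spink3-/- minus Spink3-/-XKI/+ the Jakmip2 difference was -2.28 (SE 0.39, limma adjusted p = 0.338, at least 1.85-fold). Within row 2 of the slide the difference of Spink3-/- replicate 2 from the mean of the Spink3-/-XKI/+ arrays was -2.81. Without Spink3-/- replicate 1 this comparison of Jakmip2 gave a limma adjusted p of 0.0214 with the filter applied anew and 0.139 with the tested probes held the same, and the bound there is at least 1.48-fold. With slide row as a block the difference of Spink3-/-XKI/+ from Spink3+/+ was 3.91 (limma adjusted p = 0.162). The second Jakmip2 probe, 0.20 Mb from Spink3, was well above background on Spink3-/-XKI/+ replicate 2 alone, at -0.19, and at -4.13 on Spink3-/-XKI/+ replicate 1. The other 4 arrays read -4.44, -4.86, -4.72 and -4.37 there, so the 2 probes differ on Spink3-/-XKI/+ replicate 1. These 2 comparisons of Jakmip2 with Spink3-/-XKI/+ were singled out after its values were seen.

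On the same side, Dpysl3 and Stk32a lie 0.40 and 0.41 Mb from Spink3. Stk32a, a serine/threonine kinase gene, read -0.58 and -0.23 in Spink3+/+, -0.13 and -0.08 in Spink3-/-, and 0.07 and 0.32 in Spink3-/-XKI/+. All 4 arrays without Spink3 lay above both Spink3+/+ arrays, and the difference of both genotypes was 0.45 (SE 0.18, limma adjusted p = 0.831). Dpysl3, which encodes a cytoskeletal protein of growing neurons, read 4.34 and 4.71 in Spink3+/+, 4.84 and 4.78 in Spink3-/-, and 4.34 and 5.13 in Spink3-/-XKI/+. Its Spink3-/- arrays lay above both Spink3+/+ arrays, while its Spink3-/-XKI/+ arrays overlapped with Spink3+/+. The difference of both genotypes was 0.25, with a 95% interval from -0.38 to 0.88. Farther out on this side, the phosphatase subunit gene Ppp2r2b (0.14), the RNA-binding protein gene Rbm27 (0.13), Gm4013 (0.04) and the leucyl-tRNA synthetase gene Lars (-0.16) gave small differences of both genotypes from Spink3+/+, with limma adjusted p from 0.927 for Lars to 0.988 for Gm4013.

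On the side of higher coordinates the nearest tested genes were Dcp2 and Mcc, 0.69 and 0.70 Mb away. Dcp2, the mRNA decapping enzyme gene, read -2.16 and -1.49 in Spink3+/+, -1.60 and -1.52 in Spink3-/-, and -1.65 and -1.48 in Spink3-/-XKI/+. Spink3+/+ replicate 1 was the lowest and replicate 2 lay among the other genotypes. Mcc, named for its mutation in colorectal cancer, read 1.09 and 0.82, 0.72 and 0.62, and 0.86 and 1.03 in the same order. Its Spink3-/- arrays lay below those of both other genotypes, while its Spink3-/-XKI/+ arrays lay between the Spink3+/+ arrays. The differences of both genotypes from Spink3+/+ were 0.26 for Dcp2 and -0.15 for Mcc, with limma adjusted p = 0.914 and 0.931.

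Between 2.5 and 3 Mb on that side lie Pggt1b, Ccdc112, Fem1c, Eif1a, Gm3734 and Cdo1. Gm3734 read -2.17 and -2.13 in Spink3+/+, -1.75 and -1.81 in Spink3-/-, and -0.93 and -1.44 in Spink3-/-XKI/+. Every array without Spink3 lay above both wild-type arrays, by 0.67 (SE 0.19, limma adjusted p = 0.733) for both genotypes. The Gm3734 probe was above background on both arrays of Spink3-/-XKI/+ alone and on 1 of 2 in each other genotype. It was thus tested only through the genotype where it is highest. Eif1a, a translation initiation factor gene, read 2.60 and 2.88 in Spink3+/+, 3.52 and 3.39 in Spink3-/-, and 2.61 and 3.24 in Spink3-/-XKI/+. The Spink3-/- arrays were the highest, with a difference from Spink3+/+ of 0.71 (SE 0.26, limma adjusted p = 0.99). Pggt1b, a gene of protein prenylation, differed by 0.36, Ccdc112 by 0.41, the ubiquitin ligase receptor gene Fem1c by 0.26 and the cysteine dioxygenase gene Cdo1 by -0.12 in both genotypes, with limma adjusted p from 0.898 for Ccdc112 to 0.938 for Cdo1.

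**Figure D3:**
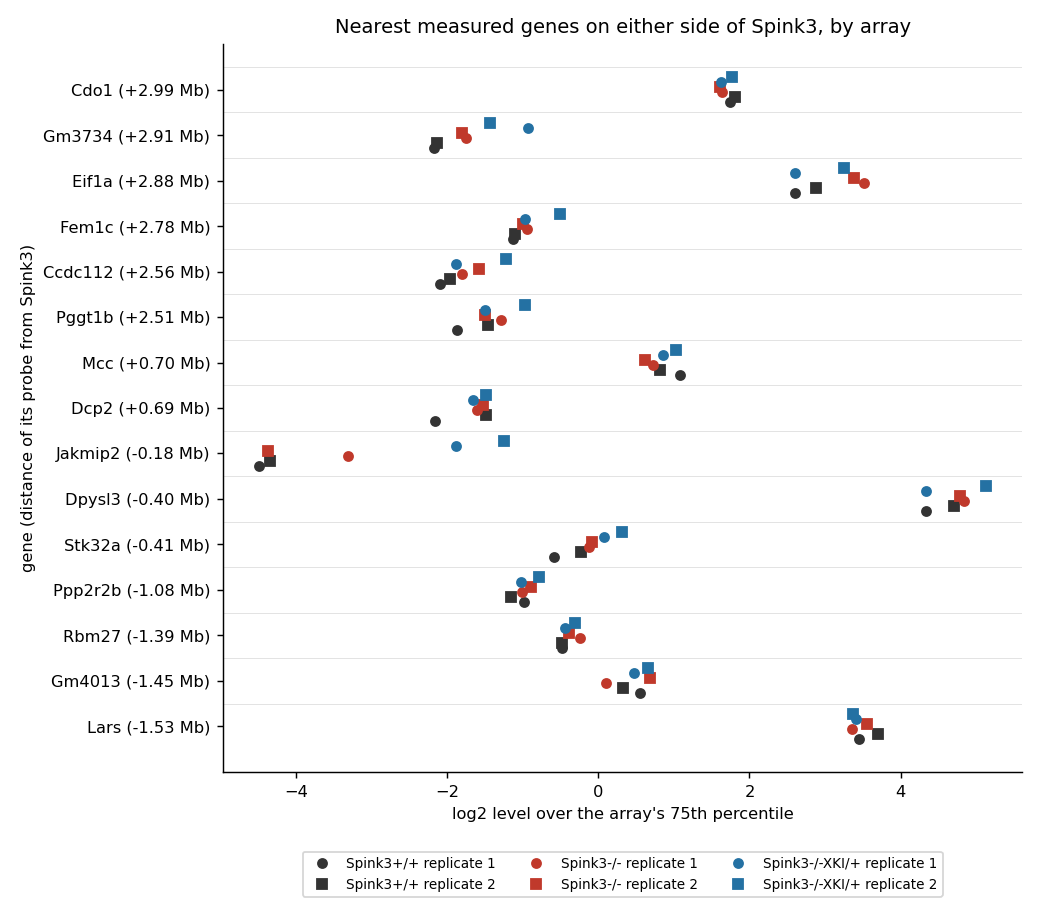
Levels (x axis, log2 over the array's 75th percentile) of the probes of the nearest tested genes on each side of Spink3 that the text describes, ordered by position, with each probe's distance in Mb after the gene's name; colours are genotypes, and circles and squares are replicates 1 and 2. Both Spink3-/-XKI/+ arrays lie above the others for Jakmip2. Every array without Spink3 lies above both Spink3+/+ arrays for Stk32a, Rbm27, Ccdc112, Fem1c and Gm3734, and for the other genes it does not. Levels of different genes are not comparable because each probe has its own brightness.

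The signalling genes of the flank include 9 genes of the immediate early and growth factor list with 13 probes, of which 10 were tested and 0 called. Egr1, a transcription factor gene that cells switch on within minutes of growth factor or stress signals, read -1.08 and -0.13 in Spink3+/+, 1.31 and 0.35 in Spink3-/-, and 0.84 and 0.43 in Spink3-/-XKI/+. Both wild-type arrays lay below the other 4, and the 2 Spink3+/+ arrays differed from each other about as much as the 2 Spink3-/- arrays did. The difference of both genotypes was 1.33 (SE 0.38, 95% interval 0.41 to 2.25), a fold of 2.52, with an unadjusted p of 0.0119 and a limma adjusted p of 0.737. Within row 1 of the slide Spink3-/- replicate 1 lay 1.91 above the mean of the Spink3+/+ arrays. The Egr1 probe (chr18:35024395-35024454, plus strand) lies 8.86 Mb from Spink3.

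Spry4, which encodes a feedback inhibitor of receptor tyrosine kinase signalling, had its higher levels in the wild type. Its probe (chr18:38745923-38745982, minus strand, 5.14 Mb away) read -0.86 and -2.31 in Spink3+/+, -2.36 and -3.30 in Spink3-/-, and -2.73 and -3.18 in Spink3-/-XKI/+. Both wild-type arrays were the highest, but Spink3+/+ replicate 2 lay next to Spink3-/- replicate 1. The probe was above background on both wild-type arrays and on replicate 1 alone of each other genotype, so it was tested through the wild type, where it is high. The difference of both genotypes was -1.31 (SE 0.47, limma adjusted p = 0.816), and -0.87 when each array not above background was set no lower than its lowest level well above background, which is called its floor here. Without Spink3+/+ replicate 1 the Spry4 difference was -0.59, and without Spink3+/+ replicate 2 it was -2.04. Fgf1, the gene of acidic fibroblast growth factor, read -2.46 and -1.93, -1.94 and -1.59, and -1.73 and -1.29 in Spink3+/+, Spink3-/- and Spink3-/-XKI/+. Spink3+/+ replicate 2 and Spink3-/- replicate 1 were nearly equal, and the difference of both genotypes was 0.56 (SE 0.24, limma adjusted p = 0.864), or 0.44 with the floor for the wild-type array not above background, and a second Fgf1 probe gave 0.26.

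Hbegf, a ligand gene of the epidermal growth factor receptor, and Nr3c1 were named for their known roles after their values were seen. Hbegf read -0.97 and -0.42 in Spink3+/+, -0.08 and -0.96 in Spink3-/-, and -0.97 and -0.55 in Spink3-/-XKI/+, with full overlap and a difference of both genotypes of 0.05 (95% interval -0.70 to 0.81). Nr3c1 read 3.14 and 3.11, 2.79 and 2.84, and 3.14 and 2.82 in the same order. Its Spink3-/- arrays lay below Spink3+/+, and Spink3-/-XKI/+ replicate 1 lay with Spink3+/+. The difference of both genotypes was -0.23 (95% interval -0.62 to 0.16), and a second Nr3c1 probe gave -0.03.

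**Figure D4:**
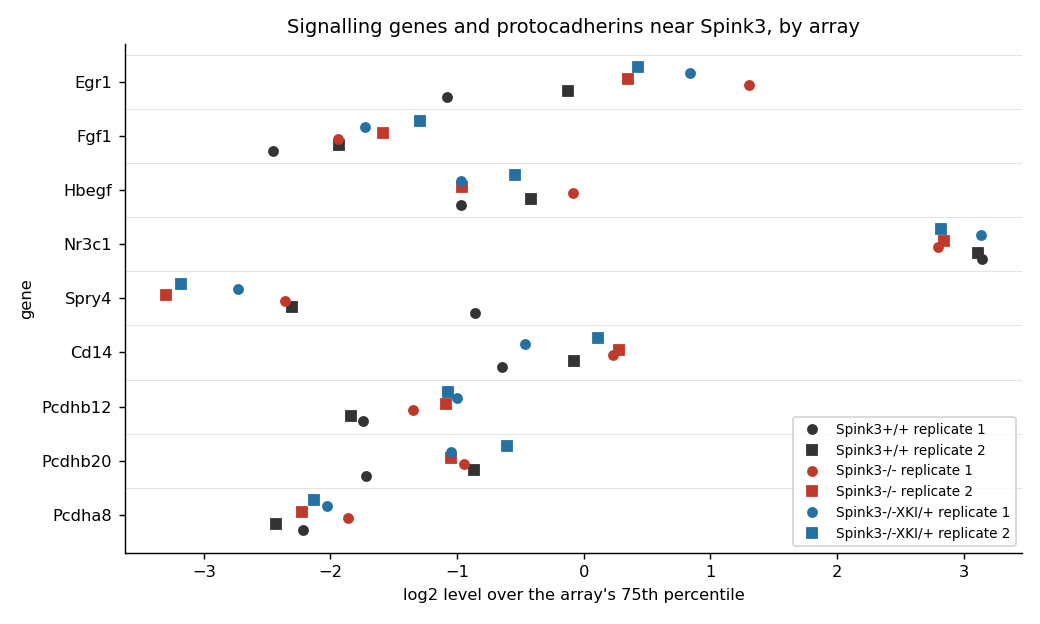
Levels (x axis, log2 over the array's 75th percentile) on each array for 5 signalling genes, the myeloid receptor gene Cd14 and 3 clustered protocadherins, all within 15 Mb of Spink3; colours are genotypes, and circles and squares are replicates 1 and 2. Both Spink3+/+ arrays lie below the other 4 for Egr1 and Pcdhb12 and above them for Spry4, while the genotypes overlap for Hbegf.

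Most clustered protocadherins were not above background on these arrays. The list of clustered and other protocadherins has 37 genes with 41 probes in the window, of which 23 were above background on no array and 9, of 8 genes, were tested; 0 were called. Pcdhb12 (chr18:37597767-37597826, plus strand, 6.29 Mb away) read -1.75 and -1.84 in Spink3+/+, -1.35 and -1.08 in Spink3-/-, and -1.003 and -1.07 in Spink3-/-XKI/+. All 4 arrays without Spink3 lay above both wild-type arrays, with a difference of 0.67 (SE 0.16, 95% interval 0.28 to 1.05, limma adjusted p = 0.586). Pcdhb20 and Pcdha8 gave 0.38 and 0.26, each with groups that overlapped. Pcdha8 was above background on both arrays of Spink3-/-XKI/+ alone, on 1 of 2 in Spink3-/- and on 0 of 2 in Spink3+/+. Pcdh12, a protocadherin of endothelium outside the clusters, read 1.40 and 1.64 in Spink3+/+, 1.20 and 1.09 in Spink3-/-, and 1.58 and 1.43 in Spink3-/-XKI/+, with Spink3-/- lowest (difference from Spink3+/+ -0.37, SE 0.18, limma adjusted p = 0.992). The median difference of the 9 tested probes was 0.24 for both genotypes, beside 0.03 over all tested probes; the highest single value, 0.70, was that of Pcdhb6, whose 95% interval ran from -0.59 to 1.99. The 4 nerve and glia markers examined all had a higher mean in both genotypes than in Spink3+/+, with a median difference of 0.41, and their part in the protocadherin values was not tested.

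The autophagy, endosome and trafficking list has 13 genes with 19 probes, 14 of them tested and 0 called, and a median difference of -0.04 for both genotypes. Wdr36, a gene of ribosome assembly, had the lowest p of the list, with -2.50 and -2.55 in Spink3+/+, -2.09 and -2.26 in Spink3-/-, and -1.87 and -2.05 in Spink3-/-XKI/+. The difference of both genotypes was 0.46 (limma adjusted p = 0.798), but this Wdr36 probe was above background on both arrays of Spink3-/-XKI/+ alone, where it is highest, on 1 of 2 in Spink3-/- and on 0 of 2 in Spink3+/+. With the floor for the others the difference was 0.35, and the second Wdr36 probe gave -0.07. Srp19, a signal recognition particle gene, differed by -0.25, and by -0.03 on its second probe. Snx24, a sorting nexin gene, differed by -0.52 in Spink3-/- (limma adjusted p = 0.992). Snx24 was above background on both arrays of Spink3-/-XKI/+ alone and on 1 of 2 in each other genotype, and with the floor its difference was 0.0029, so no direction is read from it. Prrc1, a gene outside the lists, gave -0.23 in both genotypes, with all 4 arrays below the wild type (limma adjusted p = 0.903). Atg12, whose product is attached to Atg5 as autophagosomes form, and Pik3c3, the lipid kinase gene that starts them, were named for that role after their values were seen. Atg12 read 2.21 and 1.88, 2.07 and 2.00, and 2.17 and 2.04 in Spink3+/+, Spink3-/- and Spink3-/-XKI/+, a difference of 0.03 (95% interval -0.38 to 0.43). Pik3c3 read -1.38 and -1.82, -1.72 and -1.44, and -1.33 and -1.95, a difference of -0.01 (95% interval -0.61 to 0.59). In both genes the genotypes overlapped, and these intervals are the limit of what the arrays can tell.

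The immune and myeloid list has 4 genes with 6 probes, of which 4 were above background on no array and 2 were tested, with 0 called. Cd14, which encodes the co-receptor for bacterial lipopolysaccharide on macrophages, read -0.65 and -0.07 in Spink3+/+, 0.23 and 0.28 in Spink3-/-, and -0.47 and 0.12 in Spink3-/-XKI/+. The Spink3-/- arrays lay above Spink3+/+ by 0.62 (SE 0.28, limma adjusted p = 0.992), while the Spink3-/-XKI/+ arrays overlapped with Spink3+/+. All 5 macrophage markers had a higher mean in Spink3-/- than in Spink3+/+ and a median difference of 0.25; their part in the Cd14 value was not tested. Camk4, a calcium-dependent kinase gene, differed by -0.35 in both genotypes and was low on Spink3-/- replicate 2 alone, at -2.12 beside -0.66 to -0.38 on the other 5 arrays. Sting1, the innate sensor adaptor gene outside the list, read 1.28 and 1.30, 2.22 and 1.54, and 1.65 and 1.71 in the 3 genotypes, with Spink3-/- above Spink3+/+ by 0.59 (SE 0.25, limma adjusted p = 0.992). Without Spink3-/- replicate 1 the Sting1 difference was 0.25, and without Spink3-/- replicate 2 it was 0.93.

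The cytoskeleton, adhesion and Wnt list has 18 genes with 29 probes, of which 18 probes were tested and 0 called. Of these, 3 had an unadjusted limma p under 0.05 for both genotypes, those of Jakmip2, Stk32a and Nrep. That is 16.7%, beside 5.91% of all tested probes, and the difference between these shares was not tested. Jakmip2 was tested only through Spink3-/-XKI/+, where it is high. Nrep, the neuronal regeneration-related protein gene, read 3.28 and 3.16 in Spink3+/+, 3.39 and 3.45 in Spink3-/-, and 3.67 and 3.99 in Spink3-/-XKI/+. The 4 arrays without Spink3 lay above the wild type by 0.41 (SE 0.17, limma adjusted p = 0.843). Apc, a brake on Wnt signalling, read -0.62 and -0.44, -0.53 and -0.43, and -0.53 and -0.62, and Ctnna1, the alpha-catenin gene, read 3.64 and 3.79, 3.73 and 3.36, and 3.54 and 3.34 in the 3 genotypes. The difference of both genotypes was 0.0012 for Apc (95% interval -0.37 to 0.37) and -0.22 for Ctnna1 (95% interval -0.66 to 0.21); both were named for their roles after their values were seen. Arhgap26 differed by -0.38 (limma adjusted p = 0.889), and by -0.08 on its second tested probe. Lims2, a focal adhesion gene, differed by -0.43 in Spink3-/- (limma adjusted p = 0.992).

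The RNA processing and translation list has 23 genes with 37 probes, of which 30 were tested and 0 called, with a median difference of 0.01. Ercc3, the helicase gene of transcription factor TFIIH, read -0.70 and -0.80 in Spink3+/+, -0.91 and -1.41 in Spink3-/-, and -1.31 and -1.17 in Spink3-/-XKI/+. All 4 arrays without Spink3 lay below the wild type, by a difference of -0.45 (SE 0.19, limma adjusted p = 0.865). Pura, a single-strand DNA- and RNA-binding protein gene, gave 0.16 to 0.40 over its 4 tested probes. Brd8, a bromodomain protein gene, gave -0.47 on a probe above background on 1 of 2 Spink3-/- arrays, and -0.16 on its second probe. The mitochondrial and metabolic list has 15 genes with 19 probes, 14 tested and 0 called, and a median of -0.07; Hspa9, the mitochondrial chaperone gene, gave -0.37 (-0.73 without Spink3+/+ replicate 1 and -0.023 without Spink3+/+ replicate 2) and Ndufa2, a respiratory complex I gene, 0.21. The extracellular matrix list has 6 genes with 9 probes, 6 tested and 0 called, and a median of -0.03 for both genotypes. Lox, the collagen cross-linking enzyme gene, gave -0.09 on 1 probe and 0.06 on its second probe.

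The cell cycle and chromatin list has 13 genes with 22 probes, 16 tested and 0 called. Kif20a, a kinesin gene of dividing cells, read -0.25 and -0.18 in Spink3+/+, -0.26 and -0.20 in Spink3-/-, and -0.67 and -0.82 in Spink3-/-XKI/+. The Spink3-/-XKI/+ arrays lay below the other 4, with a difference from Spink3+/+ of -0.53 (limma adjusted p = 0.653). Hdac3, a histone deacetylase gene, read between 0.49 and 0.64 on all 6 arrays. Cdc23, a subunit gene of the anaphase-promoting complex, has 2 tested probes with differences of opposite sign in Spink3-/-. One read -1.87 and -1.87 in Spink3+/+ and -1.22 and -1.48 in Spink3-/-, a difference of 0.52 (SE 0.20). The other read -1.86 and -1.77 in Spink3+/+ and -2.22 and -3.79 in Spink3-/-, a difference of -1.19 (SE 0.49), and limma gave both an adjusted p of 0.992. This other Cdc23 probe was not above background on Spink3-/- replicate 2, and with the floor there its difference was -0.36. Without Spink3-/- replicate 1 it gave -1.98, a bound of at least 1.25-fold lower, with a limma adjusted p of 0.0246 when the filter was applied anew and 0.115 with the tested probes held the same.

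Probes of other flanking genes disagreed as well. Of 28 flanking genes with more than 1 tested probe, 13 had probes of opposite sign for both genotypes against Spink3+/+, the widest being Csnk1g3, Cdc23, Rnf14, Cystm1 and Wdr36. Some of the 13 had values near 0, such as Atg12 with -0.01 and 0.03. The share over all genes of the array was not taken. Csnk1g3, a casein kinase gene, ran from -1.17 to 0.06 over 3 probes. The probe at -1.17 read 1.31 and -2.27 in Spink3+/+, -1.78 and -1.52 in Spink3-/-, and -1.83 and -1.48 in Spink3-/-XKI/+, so that Spink3+/+ replicate 1 alone stood apart. Without Spink3+/+ replicate 2 this Csnk1g3 probe gave -2.96, with a limma adjusted p of 0.00866 when the filter was applied anew and 0.0563 with the tested probes held the same, and without Spink3+/+ replicate 1 its difference was 0.62. Rnf14, a ubiquitin ligase gene, ran from -0.15 to 0.71, and its probe at 0.71 was high on Spink3-/-XKI/+ replicate 1 alone, at 2.59 beside -0.43 to 0.10 on the other 5 arrays. Cystm1 ran from -0.15 to 0.47.

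Detection also differed by array. Of the flanking probes, 12 were above background on Spink3-/-XKI/+ replicate 1 alone and 10 on Spink3-/-XKI/+ replicate 2 alone, against 2 and 7 for the wild type and 2 and 3 for Spink3-/-. Over all probes on the array the corresponding shares were 3.12% and 1.89% for Spink3-/-XKI/+, 1.72% and 1.52% for Spink3+/+, and 2.26% and 1.38% for Spink3-/-; among the flanking probes they were 3.05% and 2.54%, 0.509% and 1.78%, and 0.509% and 0.763%. With 1 array left out and the filter applied anew, some flanking probes were called, though not for every array left out and not in every comparison. Most of these calls were of probes that were not tested with all 6 arrays. With the tested probes held the same, no flanking probe was called in any of those fits. The largest count, 8 of 210 (3.81%, beside 2.18% of all tested probes), came without Spink3-/-XKI/+ replicate 1 in Spink3-/-XKI/+ against Spink3+/+, where the remaining array of that genotype stood alone and was assumed to vary like the others. The calls there included the second probe of Jakmip2 (limma adjusted p = 0.0269) and Scgb3a2 (limma adjusted p = 0.028). Both were tested there only through Spink3-/-XKI/+ replicate 2, the single array on which they are above background, and their bounds were at least 5.17-fold and at least 3.38-fold.

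At the edges of the window, the last probe inside on the side of lower coordinates, 4930474G06Rik at 14.73 Mb, and the first one outside, BC051408, were not tested. On the other side Isoc1, inside at 14.95 Mb, read 0.73 and 0.79 in Spink3+/+, 1.00 and 0.67 in Spink3-/-, and 0.84 and 0.85 in Spink3-/-XKI/+, and the first probe outside, at 15.06 Mb, was not tested.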

How the data were processed

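The 6 RNA samples were each run on a 1-colour mouse array from Agilent. The deposited intensity values are the signals that Agilent Feature Extraction (version 10.7.3.1 per the submitters' processing notes) gave for each spot; per the file headers they are background-subtracted and detrended on a linear scale, and not normalized between arrays. The flags for control, outlier and well-above-background spots (0 or 1, other than intensities) are also the deposited scanner columns. The values deposited for the series as a whole held the same intensities.

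Here log2 of the signal minus each array's 75th percentile over non-control spots was taken, outlier spots were left out and spots of a probe averaged. A probe was tested, 24820 in all, if any genotype had it well above background on both arrays. Genotypes came from the labels. The comparisons used limma 3.58.1 (R 4.3.3), two-sided (functions lmFit, contrasts.fit, eBayes), fitted to the 6 arrays together, which share 1 estimate of the spread, with Benjamini-Hochberg adjustment over all tested probes, a threshold of 0.05 and 95% intervals. The steps were tested on simulated data. Files were read with version 1.17.8 of data.table, and figures drawn with matplotlib 3.10.9 in Python 3.11.15. The number of arrays limits the precision.

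Positions are those of the array's annotation (mm9). Names were brought up to date through a RefSeq table (assembly GRCm38.p6) used for names alone: accessions matched 273 flanking probes, symbols 43 and older symbols 5. Of these 321, 320 are on chromosome 18 there, and Bloc1s1 is on chromosome 10. The labels' name Spink3 was kept.

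The members, gene lists and tests were chosen with earlier results of these data known. The text names Spink3, the 8 nearest tested genes on each side, called genes, up to 6 genes higher and 6 lower by p whose groups do not overlap (both genotypes, and Spink3-/-, against Spink3+/+), up to 3 per gene list, and up to 5 genes whose probes disagree. Names that are only an identifier were passed over in this choice, a decision made after the data were seen, and other genes are marked in the text; 1 gene that the rule names is not reported here. Replicate numbers were checked for pairing: the correlations of the deviations of same-numbered arrays were -0.04, 0.01 and 0.19, and the labels give no shared source, so no pairing was used. Alternatives were another background correction, quantile normalization, other filters, outlier spots kept, 1 probe per gene, fewer arrays, slide row and replicate number as blocks, narrower windows and each array left out.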

Additional observations from a re-analysis of the deposited data

How the results depend on the processing

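With all arrays used, no flanking probe was called in any of the 4 comparisons under normexp background correction, quantile normalization, no filter or a filter on all 6 arrays, outlier spots kept, 1 probe per gene, only the arrays compared (both genotypes against Spink3+/+ already use all 6), slide row as a block, and windows of 5 and 10 Mb. The series' values are the same numbers and could not differ. With the replicate number as a replicate block, which is no shown pairing, the count was 0 as well. The slide row block leaves Spink3-/- against Spink3+/+ resting on Spink3-/- replicate 1, and Spink3-/- against Spink3-/-XKI/+ on Spink3-/- replicate 2.

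With each array left out, the number of calls ranged from 0 to 3 for Spink3-/- against Spink3+/+, 0 to 8 for Spink3-/-XKI/+ against Spink3+/+, 0 to 5 for Spink3-/- against Spink3-/-XKI/+ and 0 to 4 for both genotypes. When the probes tested with all arrays were held the same, an alternative chosen after seeing the data, none of these counts rose above 0. With the filter applied anew, flanking probes were called at a higher share than all tested probes only without Spink3-/-XKI/+ replicate 1. This was so for Spink3-/-XKI/+ against Spink3+/+ and for Spink3-/- against Spink3-/-XKI/+. In the other fits the flanking share was no higher. Each fit left a genotype with a single array, and differences between shares were not tested.

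Some differences of both genotypes from Spink3+/+ that had passed no test changed sign, and the cause was not tested. Under normexp they were Dcp2 (-0.0041), Pcdha8 (-0.032) and Lox (0.015). With slide row as a block they were Lox (0.10), Gm4013 (-0.40), Brd8 (0.13), Cdc23 (0.46), Camk4 (0.83), Srp19 (0.065), Apc (-0.080), Cystm1 (-0.012) and Ctnna1 (0.054). With each array left out, the range was -0.080 to 0.59 for Dcp2, -0.28 to 0.11 for Lox, -0.11 to 0.18 for Gm4013, -0.75 to 0.040 for Camk4, -0.089 to 0.091 for Apc, -0.049 to 0.80 for Pcdhb20, -0.22 to 0.33 for Hbegf, -0.23 to 0.21 for Pik3c3, -2.96 to 0.62 for Csnk1g3 and -0.14 to 0.19 for Atg12. Of 62 differences given for named flanking genes, none of which had passed a test, 42 moved by over 1.5 times or changed sign when 1 array was left out. With arrays not above background at no less than their floor, an alternative chosen after seeing the data, Snx24 in Spink3-/- changed sign (0.0029).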

Other observations

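The same window of chromosome 18 also holds 224 probes named only by a genomic interval, which lie outside the set described above. Of these, 52 were tested and 0 were called in any comparison (limma). In Spink3-/-XKI/+ against Spink3+/+, 9 of them had an unadjusted p under 0.05 (17.3%, 8 of them higher), with a median difference of 0.18. In the rest of chromosome 18 the interval probes gave 14.5% and a median of 0.15 over 69 tested probes, so the values are alike inside and outside the window. Over all tested probes the share was 6.8% and the median 0.05. In Spink3-/- against Spink3+/+ the interval probes of the window gave 1 such probe (1.92%) and a median of 0.07.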
